A study of Mus musculus with 8 samples.

Results

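Desmosomes are adhesive junctions that tie the keratin filaments of neighbouring epithelial cells together. Their desmosomal cadherins (desmogleins and desmocollins) cross the cell border, the armadillo proteins plakoglobin and the plakophilins bind the cadherin tails inside the cell, and desmoplakin, a plakin, links this plaque to intermediate filaments. Periplakin and envoplakin are related plakins that can pair with each other and are best known from the cornified envelope of skin. The 9 genes described here are the cadherins Dsg2 and Dsc2, the armadillo genes Jup, Pkp1, Pkp2 and Pkp3, and the plakins Dsp, Ppl and Evpl. They were found by gene name, as every non-control probe whose gene name in the scanner files is one of these 9. They are 9 of the 27573 genes named on the array and have 20 of its 41174 probes. A probe was tested when the scanner software marked it well above background on 4 or more arrays, which held for 15 of these probes and 8 of the genes. Pkp1 was not tested.

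RNA was measured on 8 single-colour Agilent arrays of mouse dorsal pancreatic epithelium taken at e12.5, and each RNA sample was a pool of 3 embryos. The 4 mutant samples were Sox9fl/fl with the Pdx1-Cre transgene, in which Cre acts where the Pdx1 promoter is active, and so in the pancreatic epithelium. The 4 wild-type samples were Sox9fl/fl littermates without Cre, so that the floxed alleles were common to both groups and the Cre transgene was not. The floxed line was on a mixed FVB/N and C57Bl/6J background and the Cre line on C57Bl/6J. The series text speaks of 3 biological replicates per genotype, while 4 arrays per genotype were analysed here. Nothing in the labels says which pools shared a litter, and p-values measure the spread between these 8 samples.

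Sox9, the transcription factor that was deleted, was lower in all 4 mutant arrays, with a log2 difference of -2.70 and an adjusted p of 0.0250 (limma, SE 0.517). The share of spots above background was 59.4% to 77.7%. Beside epithelial markers, described further on, the samples held RNA of other cells. Genes of mesenchyme had a mean log2 level of 2.71 to 3.14 in wild-type and 3.44 to 3.85 in mutant arrays, and those of endothelium 0.54 to 0.89 and 1.11 to 1.37. In such bulk samples, fewer epithelial cells and less RNA per epithelial cell cannot be told apart. Y-linked genes had a mean log2 level of -6.44, -5.19 and -6.58 in wild-type replicates 1, 2 and 4, against -1.13 in wild-type replicate 3 and -1.87 to -0.17 in the mutant arrays, and genotype and embryo sex were thus partly confounded.

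Levels are given as log2 signal minus the 75th percentile of the same array, so that 0 is that percentile. They are compared between arrays for a gene and not between genes, since each probe has its own brightness. The probes of 6 genes are identified here by their first 30 bases, to show which stretch of each transcript was read. They carry no capitals, since no base in them was singled out.
Pkp3: ccaccagaaaagaacaggcgcttgcaactg
Pkp2: tgagtgtgcaccggaggaacacctgagaaa
Jup: ctcacctggaaagctctcaagagcagactg
Dsp: aaattacactgactactggtggcttagtac
Ppl: ttctgacttggatcaaaactatcaacagtg
Evpl: tgtccacctcactgcgcaatcgtttgtggt
In the scanner files' positions on mouse assembly mm8, the Pkp3 probe lies on chromosome 7 (140941645 to 140941704) and the Pkp2 probe on chromosome 16 (16186133 to 16186192). The Jup and Evpl probes lie on chromosome 11 (100187471 to 100187530 and 116036697 to 116036756). The Dsp probe lies on chromosome 13 (38205718 to 38205777) and the Ppl probe on chromosome 16 (5001612 to 5001656). Exon and UTR placement was not analysed here.

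Of the 8 genes tested, 5 fell in the Sox9 mutant samples, none rose and 3 did not pass the threshold. Among all 18379 genes tested, 3.86% were called lower and 1.57% higher. Pkp3 fell most, 4.72-fold, followed by Ppl (3.39-fold), Dsg2 (2.09-fold), Pkp2 (2.04-fold) and Dsp (1.98-fold). Jup, Evpl and Dsc2 had log2 differences between -0.33 and -0.12. The median log2 difference was -1.01 over the 8 genes and 0.017 over all genes. Each of the 8 differences was below 0, and the groups did not overlap for the 5 that passed, where 7.99% of all genes had every mutant array below every wild-type array and 7.25% every mutant array above. Of the 8 genes, 4 were at least 2-fold lower and past the threshold, against 2.66% of all genes. In the authors' deposited value table, refitted, these 5 again fell and none rose, where 4.12% of all genes were called lower and 3.04% higher.

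**Figure D1:**
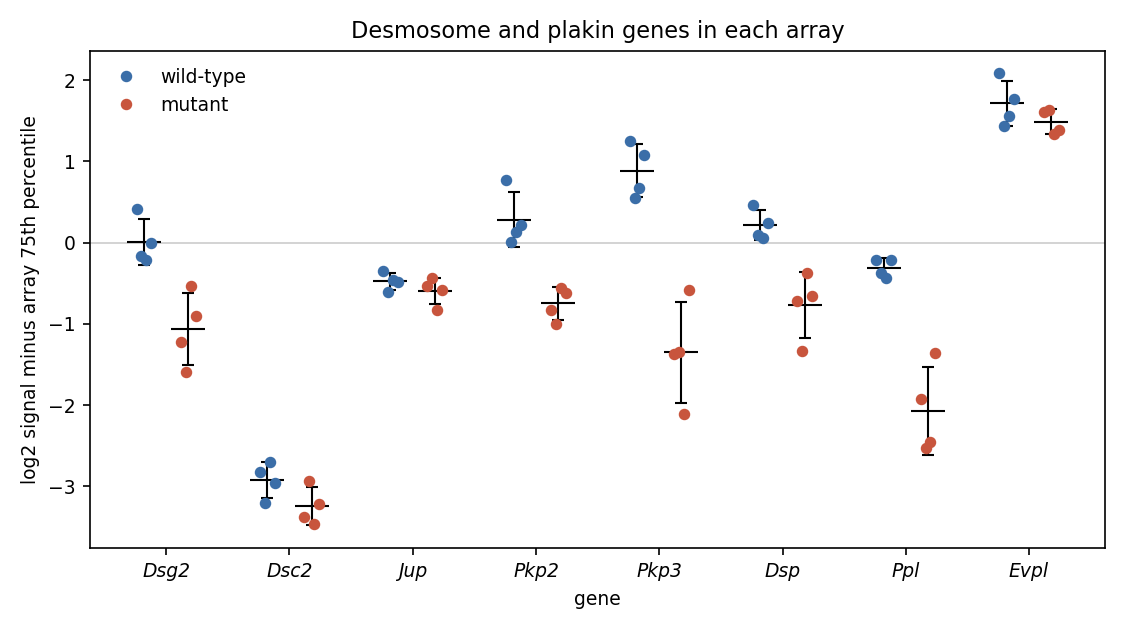
Log2 signal minus the array's 75th percentile (vertical axis) for the 8 tested desmosome and plakin genes (horizontal axis), with 1 point per array, wild-type in blue and mutant in red, and black bars for mean and SD (n = 4 per group). Pkp3, Ppl, Dsg2, Pkp2 and Dsp have all mutant points below all wild-type points, while the groups overlap for Jup, Evpl and Dsc2.

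The desmosomal cadherins, both encoded on chromosome 18, are the adhesive part of the junction. Dsg2, the desmoglein of simple epithelia and heart, stood at log2 levels of 0.41, -0.17, -0.22 and -0.0068 in the wild-type arrays (replicates 1 to 4, as in every series of values here) and at -1.22, -1.59, -0.54 and -0.90 in the mutant arrays. Every mutant array lay below every wild-type array, with mutant replicate 3 nearest to the wild-type values. Wild-type arrays averaged 0.0041 ± 0.28 (SD, n = 4) and mutant arrays -1.06 ± 0.45 (SD, n = 4), a difference of -1.07 (SE 0.242, adjusted p = 0.0437 in limma). All 4 tested Dsg2 probes gave differences below 0, from -1.31 to -1.07. When the test ran over probes instead of genes, none of these 4 probes passed (adjusted p 0.0530 to 0.0929 in limma, where 2.88% of probes were called lower). Dsc2, the desmocollin partner of Dsg2 in simple epithelia, had log2 levels of -2.82, -3.21, -2.70 and -2.96 in wild-type and of -3.37, -2.93, -3.46 and -3.22 in mutant arrays. The groups overlapped, and mutant replicate 2 lay within the wild-type range. The difference was -0.33, with a 95% interval of -0.69 to 0.044 (adjusted p = 0.337 in limma). A second, dimmer Dsc2 probe also gave -0.33 (adjusted p = 0.780 in limma over probes).

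Of the armadillo genes of the plaque, Pkp3 and Pkp2 fell, Jup did not pass and Pkp1 was not tested. Pkp3, a plakophilin of most epithelia, had log2 levels of 1.25, 0.55, 0.68 and 1.08 in wild-type and of -1.38, -1.35, -2.11 and -0.58 in mutant arrays. Its processed intensity as scanned was 841 to 1349 in wild-type and 95.9 to 418 in mutant arrays. The wild-type arrays lay close together and the mutant arrays were spread, with mutant replicate 4 the least affected and mutant replicate 3 the most. Their averages were 0.89 ± 0.33 (SD, n = 4) against -1.35 ± 0.62 (SD, n = 4), a difference of -2.24 (SE 0.313, adjusted p = 0.00952 in limma). Within slides 1, 2 and 3 the Pkp3 difference was -2.65, -1.65 and -2.51. The slide 1 value sets mutant replicate 3 against wild-type replicate 2. For slide 2, mutant replicates 1 and 4 are set against wild-type replicate 3. For slide 3, mutant replicate 2 is set against wild-type replicates 1 and 4. Within-slide values, for this and every other gene, thus rest on 1 array in at least 1 genotype and carry no test.

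Pkp2, the plakophilin shared by simple epithelia and heart muscle, had log2 levels of 0.77, 0.0043, 0.13 and 0.22 in wild-type and of -0.83, -0.997, -0.56 and -0.61 in mutant arrays. The mutant arrays were close to each other, and wild-type replicate 1 was the highest of the 8. The difference was -1.03 (SE 0.188, adjusted p = 0.0214 in limma), and -0.56, -0.85 and -1.49 within slides 1, 2 and 3. Jup, which encodes plakoglobin, the catenin that binds both desmosomal and classical cadherins, had log2 levels of -0.35, -0.61, -0.46 and -0.49 in wild-type and of -0.54, -0.44, -0.83 and -0.58 in mutant arrays. These ranges overlapped. The Jup difference was -0.12, with a 95% interval of -0.39 to 0.15 (adjusted p = 0.727 in limma), so a fall as large as that of Pkp2 lay outside its interval. Pkp1, the plakophilin typical of stratified epithelia, was well above background on 0 of 4 wild-type and 0 of 4 mutant arrays and was given no fold change.

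Of the 3 plakins, Dsp and Ppl fell and Evpl did not pass. Dsp, desmoplakin, had log2 levels of 0.46, 0.090, 0.057 and 0.25 in wild-type and of -0.71, -1.34, -0.38 and -0.65 in mutant arrays. The groups were separate, with mutant replicate 3 nearest to the wild-type arrays and mutant replicate 2 farthest. The difference was -0.98 (SE 0.209, adjusted p = 0.0344 in limma). A second Dsp probe, also above background on all 8 arrays, gave -1.14 (adjusted p = 0.0158 in limma over probes). Another, dim Dsp probe was above background on 4 wild-type arrays and 1 mutant array, so that it was tested through the wild-type arrays alone and its size is not given as a difference. Ppl, periplakin, had log2 levels of -0.21, -0.38, -0.44 and -0.21 in wild-type and of -1.92, -2.53, -2.45 and -1.36 in mutant arrays. The wild-type arrays were nearly alike, with an SD of 0.12 against 0.54 in the mutant. The Ppl difference was -1.76 (SE 0.251, adjusted p = 0.00972 in limma), and -2.07, -1.21 and -2.33 within slides 1, 2 and 3. A second Ppl probe was above background on 2 wild-type and 0 mutant arrays and was not tested. Ppl, Pkp3, Pkp2 and Jup thus each rest on 1 tested probe. Evpl, envoplakin, had log2 levels of 2.08, 1.44, 1.56 and 1.77 in wild-type and of 1.61, 1.63, 1.34 and 1.39 in mutant arrays. The groups overlapped and the difference was -0.22, with a 95% interval of -0.59 to 0.15 (adjusted p = 0.567 in limma). The other Evpl probe gave -0.19 (adjusted p = 0.643 in limma over probes).

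Ratios within each array are given as a description, with no test, for 4 pairs of genes, chosen after their values were seen. For Ppl over Evpl, the log2 ratios were -2.29, -1.82, -2.002 and -1.98 in wild-type samples, against -3.54, -4.16, -3.78 and -2.75 in mutant samples. The ratio was lower in every mutant array, a change of -1.54, or 2.90-fold. The ratio of Pkp3 to Pkp2 changed by -1.21 and that of Dsp to Jup by -0.86. These 3 ratios were lower in every mutant array than in any wild-type array. The ratio of Dsg2 to Dsc2 changed by -0.74, and its groups overlapped.

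The Pkp3 and Ppl calls were kept on leaving out any 1 of the 8 arrays, with adjusted p of at most 0.0371 and 0.0381 in limma. Pkp2 passed in 5 of these 8 fits, Dsp in 2 and Dsg2 in 1. With slide as a fixed block, Dsp (-1.01, adjusted p = 0.0545 in limma) and Dsg2 (-1.06, adjusted p = 0.0729) did not pass. With slide as a random block both passed, with adjusted p of 0.0247 and 0.0326. Within slides 1, 2 and 3 the difference was -0.47, -0.74 and -1.69 for Dsp and -0.37, -0.84 and -1.79 for Dsg2. With the Y-linked level as a covariate no member passed, but only 2 of all 18379 genes did, so this count says nothing about the members. The differences in that fit were -1.84 for Pkp3, -1.55 for Ppl, -0.80 for Dsp and Pkp2 and -0.77 for Dsg2.

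**Figure D2:**
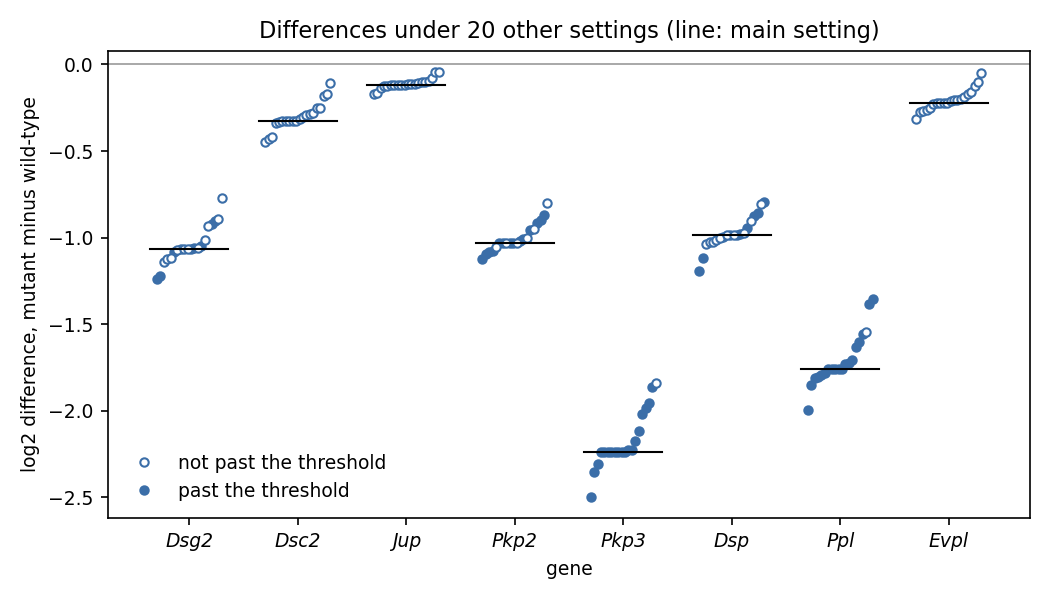
Log2 difference, mutant minus wild-type (vertical axis), for each gene (horizontal axis) under 20 settings other than the main one, including 8 that leave out 1 array. Filled points passed the adjusted p threshold of 0.05, open points did not, and the line is the main value. Pkp3 runs from -2.50 to -1.84 and Ppl from -1.99 to -1.35, with 1 open point each, and every point of every gene lies below 0.

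General epithelial genes were read beside the members. Of 22 such genes, which include keratins and Cdh1 but no member, 19 fell, none rose and 3 did not pass, with a median log2 difference of -2.13. The 19 were Cldn3, Cldn4, Cldn6, Cldn7, Ocln, Marveld2 and Tjp3 of tight junctions, Cdh1, Epcam, Krt8, Krt18, Esrp1, Elf3, Grhl2, Rab25, Spint1, St14, Prss8 and Ap1m2, with differences from -2.75 for Cldn3 to -0.98 for Krt18. The 3 that did not pass were Lsr (-0.60), Spint2 (-0.59) and Krt19 (-0.14). Spint2 varied widely between arrays, with an SD of 1.57 in wild-type and 1.65 in mutant arrays. Elf3 was above background on 4 wild-type and 2 mutant arrays, so the size of its fall is not exact. Over the 22 genes, Elf3 included, wild-type samples had mean levels of 1.47, 1.06, 1.26 and 1.16. Mutant samples had -0.63, -1.26, -0.90 and 0.076, a difference of -1.92. Mutant replicate 4 kept the highest epithelial level of the mutant arrays, and it also had the highest Pkp3 and Ppl levels among them. Relative to this epithelial mean in the same array, the Ppl level differed by 0.16 (95% interval -0.67 to 0.98, exact permutation p = 0.229) and the Pkp3 level by -0.32 (-1.15 to 0.51, exact permutation p = 0.229). These intervals use an SE that limma gave to every gene on this scale, and so do not measure each gene's own spread. Relative Ppl levels had an SD of 0.16 in wild-type and 0.13 in mutant arrays (n = 4 each). The groups overlapped for both genes.

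The other 6 genes had smaller differences than the epithelial mean, as most genes of the array did. Relative to it they were higher in every mutant array than in any wild-type array, which held for 88.1% of all genes. The relative difference was 1.80 for Jup, 1.69 for Evpl, 1.59 for Dsc2, 0.93 for Dsp, 0.88 for Pkp2 and 0.85 for Dsg2. In limma on this relative scale all 6 passed, but so did 96.6% of all genes as higher, and 0.245% passed as lower. A count of 6 out of 8 is near that background and is not a result about these genes. The spread of the shared reference gave every gene the same SE of 0.422 there.

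**Figure D3:**
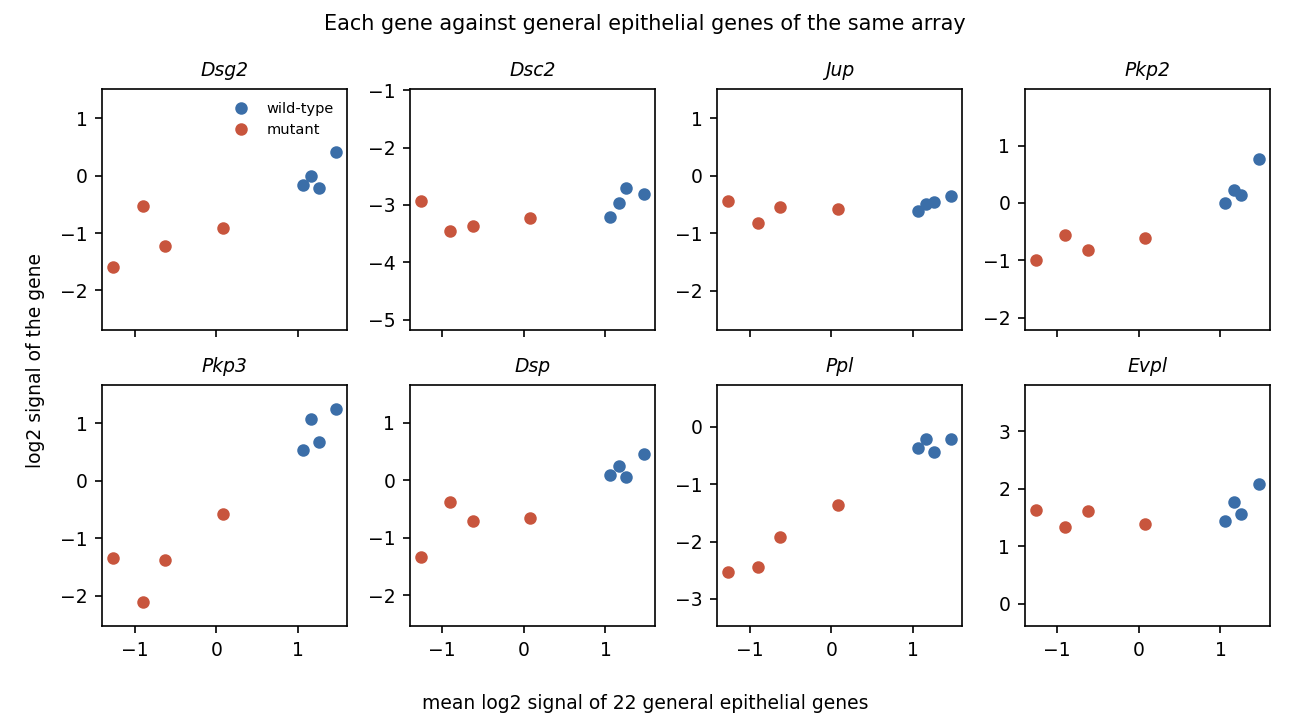
Log2 level of each gene (vertical axis, the same span of 4.2 log2 units in each panel) against the mean log2 level of 22 general epithelial genes in the same array (horizontal axis), with 1 point per array, wild-type in blue and mutant in red. Ppl and Pkp3 fall along with the epithelial mean, Dsp, Dsg2 and Pkp2 fall less, and Jup, Evpl and Dsc2 stay nearly level.

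Variation among arrays of 1 genotype was compared over all 28 pairs of members. After each array's deviation from its genotype's mean was taken, the 8 deviations of Dsp and Dsg2 had a Pearson correlation of 0.94, those of Dsg2 and Pkp2 0.87, and those of Pkp3 and Ppl 0.79. Genes that did not pass were among the closest pairs too, with 0.79 for Dsc2 and Jup, 0.76 for Jup and Evpl and 0.65 for Pkp3 and Jup. Pkp3 and Dsp had -0.041, Ppl and Dsg2 0.24, and Dsp and Dsc2 -0.57, the lowest of all pairs. The deviations of Ppl followed the epithelial mean (0.94), those of Pkp3 less so (0.70), and those of Jup and Evpl not at all closely (0.080 and 0.011). These are descriptions over 8 arrays whose values share labelling and slide, with no test.

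Other desmosome, plakin and hemidesmosome genes were read from lists written with textbook knowledge. Perp, a tetraspan membrane protein of desmosomes, fell by 0.98 (SE 0.171, adjusted p = 0.0184 in limma), close in size to Dsp and Dsg2. Pkp4, an armadillo protein found at several kinds of junction, had -0.21 (adjusted p = 0.434). The other 7 desmosome genes on the array, which are Dsg1a, Dsg1b, Dsg1c, Dsg3, Dsg4, Dsc1 and Dsc3, were well above background on 3 arrays at most and were not tested. Of these 9 other desmosome genes, then, 1 fell, none rose, 1 did not pass and 7 were not tested. The larger plakins, which link filaments and microtubules in many cell types, did not pass in limma. Plec had -0.0095 (adjusted p = 0.985), Dst -0.26 (adjusted p = 0.317) and Macf1 0.15 (adjusted p = 0.479), and Eppk1 was above background on 1 array. Among 4 hemidesmosome genes, Itgb4, the integrin subunit that anchors epithelium to basement membrane, fell by 0.93 (SE 0.143, adjusted p = 0.0117 in limma). Itga6 (-0.55), Cd151 (-0.25) and Col17a1 (0.48) did not pass.

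Of 5 filament genes 2 fell, the simple epithelial keratins Krt8 (by 1.56, SE 0.189, adjusted p = 0.00806 in limma) and Krt18 (by 0.98, adjusted p = 0.0130). Krt7 (-0.53), Krt19 (-0.14) and Vim (0.29) did not pass, with an adjusted p of 0.103, 0.864 and 0.267 in limma. Of 5 adherens junction genes, only Cdh1, the gene of E-cadherin, passed (-2.51, SE 0.409, adjusted p = 0.0139 in limma). The catenins of these junctions did not pass, with 0.17 for Ctnnb1, 0.12 for Ctnna1 and -0.11 for Ctnnd1. Neither did Cdh2, N-cadherin (0.41, adjusted p = 0.574 in limma).

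**Figure D4:**
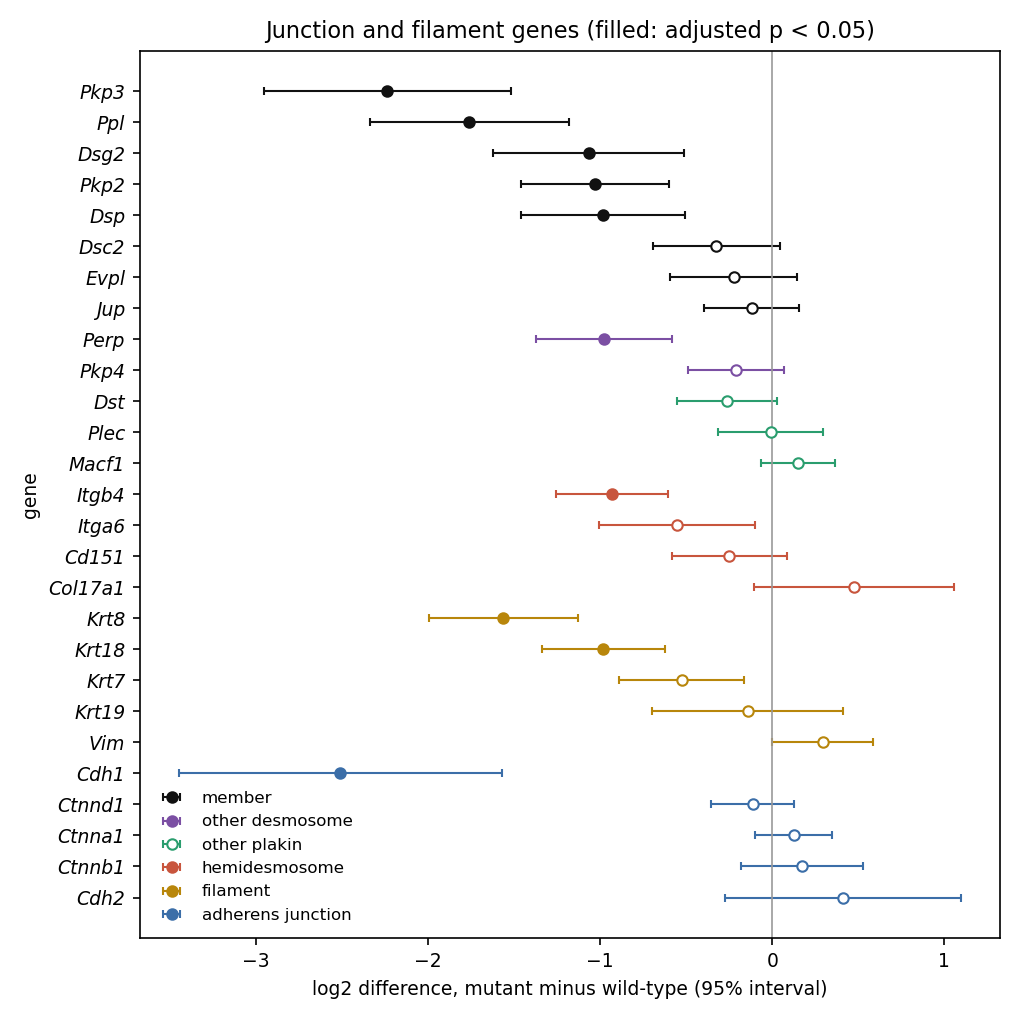
Log2 difference, mutant minus wild-type (horizontal axis), with its 95% interval from limma, for the 8 tested desmosome and plakin genes in black and for other desmosome, plakin, hemidesmosome, filament and adherens junction genes in colour (n = 4 arrays per group). Filled points passed the adjusted p threshold. Pkp3 at -2.24 and Cdh1 at -2.51 lie farthest to the left, and Jup, Plec and the catenins lie near 0.

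Marker genes of other cell types moved the other way in the same samples, and their part in the differences of the members was not tested. Of 10 mesenchyme genes 3 rose (Pdgfra, Postn and Col1a2), of 8 mesothelium genes 2 (Bnc1 and Upk1b), of 9 endothelium genes 2 (Emcn and Eng) and of 8 macrophage genes 4 (Adgre1, Csf1r, Fcer1g and C1qc), and none of these fell. Their median log2 differences were 0.69, 0.83, 0.47 and 0.64. Every tested gene of these 4 lists had a difference above 0. Liver genes had the largest median of these lists, 1.76, and 3 of 6 rose, none fell and 5 were above 0. These were Alb, serum albumin (3.48, adjusted p = 0.0232 in limma), Itih2 (2.60, adjusted p = 0.00407) and Afp, alpha-fetoprotein (2.23, adjusted p = 0.00806). The mean log2 level of the liver genes was -1.10 to -0.37 in wild-type and 0.16 to 1.77 in mutant arrays. Mesothelium genes, markers of a lining that itself carries desmosomes, had a mean log2 level of -1.60 to -1.12 in wild-type and of -0.68 to -0.17 in mutant arrays.

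The genes most like the members in pattern were found by correlating every other tested gene over the 8 arrays with the mean of the 8 members. The 10 closest were Ppy (the hormone pancreatic polypeptide), Esrp2 (an epithelial splicing factor), Dnajc22, Wdr72, Ddit4l, Ambp (a plasma protein precursor), Cited1 (a transcriptional co-regulator), Fam241b, Gal3st1 (a sulfotransferase) and Ano9. Their Pearson correlations ran from 0.995 to 0.998 over 8 arrays. All 10 were lower in every mutant array. This follows from how they were picked, since the split by genotype makes up most of the shared pattern. Wdr72 stood at -6.34 to -5.48 in mutant arrays, near or below the lowest signals well above background there (-5.68 to -4.59). Its size is therefore not given. The other log2 differences ran from -2.76 for Gal3st1 to -0.98 for Ddit4l. Ppy, the closest, had log2 levels of -0.25, -1.15, -0.87 and -0.68 in the wild-type arrays and of -2.31, -2.60, -2.41 and -1.80 in the mutant arrays.

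Promoter sequence from RefSeq was at hand for 2 members, Dsp, which fell, and Jup, which did not pass, and it is shown for this contrast. Each window runs from 250 bases before to 50 bases after the annotated start on assembly GRCm38.p6. Capitals mark matches to the motifs searched on both strands, which were ACAATG (the core of Sox binding sites), ACCGGT (the core of Grhl sites), CAGGTG (an E-box bound by Snai and Zeb factors among others) and TATAAA.
Dsp, chr13:38151044-38151343, plus strand: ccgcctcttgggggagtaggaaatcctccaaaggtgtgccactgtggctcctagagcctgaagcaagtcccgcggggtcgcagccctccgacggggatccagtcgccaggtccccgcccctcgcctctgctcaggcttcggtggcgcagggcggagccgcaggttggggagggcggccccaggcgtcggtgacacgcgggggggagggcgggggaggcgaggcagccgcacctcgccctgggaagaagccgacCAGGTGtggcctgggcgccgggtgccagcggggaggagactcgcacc
Jup, chr11:100397741-100398040, minus strand: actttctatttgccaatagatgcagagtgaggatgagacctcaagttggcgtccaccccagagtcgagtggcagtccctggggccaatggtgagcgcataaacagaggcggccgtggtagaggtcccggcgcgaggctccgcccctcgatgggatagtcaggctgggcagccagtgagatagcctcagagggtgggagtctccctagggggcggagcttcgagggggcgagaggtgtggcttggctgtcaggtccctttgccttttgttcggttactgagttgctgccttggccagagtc
The Dsp window held 1 match, CAGGTG, which 20.2% of the 32851 promoter windows of this length hold, and the Jup window held none of the 4 motifs. ACAATG occurs in 12.6% of all windows, ACCGGT in 2.33% and TATAAA in 13.6%. The windows were rich in G and C, at 73.0% for Dsp and 60.7% for Jup against a median of 52.7%. No match says only that these letters are not in the window.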

How the data were processed

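The scanner output came from Feature Extraction 9.5.3.1 (Agilent), per the file headers. The deposited processed signal is a linear intensity; the headers record spatial and multiplicative detrending within an array. Deposited flags, which count as other than a measurement, mark control, dim and outlier spots. The authors' deposited value table holds quantile normalized intensity values with a median of 227 in every array. The submitters' processing notes name limma. That table's rows were matched to spots by row number (rank correlation with the mean signal at least 0.999 on each array).

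Of 45018 spots per array, 1639 were controls and were left out, as were outlier spots, of which none was a member's. The log2 signal minus the array's 75th percentile was averaged over the spots of a probe. Of 41174 probes, 27389 were well above background on at least 4 of 8 arrays and were kept, and the brightest kept probe on average stood for its gene (18379 genes). Groups were compared with lmFit and eBayes of limma 3.58.1 under R 4.3.3; the two-sided p-values were Benjamini-Hochberg adjusted across all genes, with a threshold of 0.05. For single values, all 70 assignments of arrays to groups gave an exact permutation p, two-sided. In data simulated for this comparison over 18379 genes, 200 genes were changed and noise was drawn independently for each array. There 46% of log2 falls of 1 and 92% of falls of 2 were recovered, and 50% and 72% of such rises. The real data had 998 calls and arrays that shared slides, so these shares may not carry over. RefSeq accessions named 23374 of the probes. Sequences are from RefSeq and the scanner files. Python 3.11.15, pandas 2.3.3 and matplotlib 3.10.9 were also used.

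The members and lists were chosen with earlier results of these data known. The rule for named genes took all members, list genes past the threshold or among the 4 largest differences of a list, and the 10 genes most like the members. Genes of the lists for other cell types that did not pass are mostly given as counts. Alternatives were the background, value source, normalization, dim-probe filter, outlier spots, probe choice, slide and replicate blocks, array weights, a Y-linked covariate, and each array left out. Precision is limited by 4 arrays per group.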

Additional observations from a re-analysis of the deposited data

How the results depend on the processing

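All 8 members kept a difference below 0 under each of the 20 alternatives. The count of 5 lower members held with normexp, the authors' value table, quantile normalization, the stricter filter, outlier spots kept, the mean of a gene's probes, slide as a random block and array weights. Without a filter on dim probes it was 2, and it was 3 with slide as a fixed block and 0 with the Y-linked covariate. On leaving out 1 array it ran from 2 to 5, being 3 without wild-type replicates 1, 2 or 3, 2 without wild-type replicate 4 or mutant replicate 1, and 3 without mutant replicates 2 or 4. The cause was not tested. The 998 genes called overall became 965 with normexp, 1315 with the authors' value table, 959 with quantile normalization and 1054 with the stricter filter. They became 1003 with outlier spots kept and 917 with the mean of a gene's probes. The total was 419 with no filter, 1286 with slide as a fixed block and 1537 with slide as a random block. The total was 1666 with array weights, 2 with the Y-linked covariate, and 400 to 983 with 1 array left out.

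With the replicate block, 2 members and 340 genes passed, so Dsp, Dsg2 and Pkp2 lost the call. Nothing in the labels pairs the samples by replicate number. Deviations of same-numbered arrays correlated at -0.35, -0.30, -0.0043 and 0.087, and those of wild-type and mutant arrays on 1 slide at -0.091 to 0.57. Whether same-numbered pools shared a litter was not tested. Relative to epithelial genes, the count of 6 higher members ran from 3 to 6 with 1 array left out, being 3 without wild-type replicate 3, mutant replicate 1 or mutant replicate 3, and the count of 0 lower members stayed at 0. At an unadjusted p under 0.05 none was lower there either.

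Over the alternatives, the Pkp3 difference ran from -2.50 to -1.84, that of Ppl from -1.99 to -1.35, and those of Dsp, Dsg2 and Pkp2 from -1.24 to -0.77.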

Other observations

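Stratified squamous epithelium, where desmosomes and the cornified envelope plakins are most abundant, was read as a list of 8 tested genes. Trp63, a transcription factor of basal cells in such epithelia, had signal above background in 4 wild-type arrays and 1 mutant array. It was called lower, but it was tested through the wild-type arrays alone, so its size is not given as a difference. No other of the 8 passed. Krt13 had -0.30 (adjusted p = 0.808 in limma). Krt14 (0.63, adjusted p = 0.164 in limma) and Lor, the cornified envelope protein loricrin (1.12, adjusted p = 0.0652), were higher in every mutant array without passing. Cardiac muscle, the other tissue rich in desmosomes, had 0 of 6 genes past the threshold in limma, with Myh7 at 1.23 (adjusted p = 0.278) and Tnnt2 at 0.91 (adjusted p = 0.205). Of the 6, 4 were above 0 and 2 below, the latter being Tnni3 (-0.21) and Nppa (-0.18).
Of 2 tested genes of the gut list, Vil1, the microvillus protein villin, fell by 0.96 (adjusted p = 0.0172 in limma), and Barx1, a stomach mesenchyme transcription factor, had 0.96 (adjusted p = 0.0614).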
